A study of Rattus norvegicus with 24 samples.

Results

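Glutamate and GABA synthesis and uptake is represented here by 8 of the 4736 genes that the array measures with probe sets of 1 gene symbol: Gad1, Gad2, Glud1, Glul, Slc1a1, Slc1a2, Slc1a3 and Slc6a11. Its members are the probe sets (groups of short oligonucleotides that together report 1 transcript) whose only gene symbol in the platform annotation is 1 of these, 21 of the 8799 on the array. The tissue was whole brain of rats, measured as total RNA on 24 one-colour oligonucleotide arrays. The 4 exposed groups had 3 arrays each and had breathed a volatile anaesthetic: halothane at 0.8% for 5 exposures over 2.5 days, halothane at 0.8% for 10 exposures over 5 days, isoflurane at 1.0% for 5 exposures over 2.5 days, and isoflurane at 1.0% for 10 exposures over 5 days. An exposure lasted 90 min, and the 2 of a day were 3 h apart. The 12 control arrays came from rats that had halothane for only 3 min, after which ice-cold saline was perfused, so the controls were not free of anaesthetic. The sources used here give no strain, sex or age. Since no label ties the replicates to separate rats, a p-value here speaks of the spread of these samples alone, and that spread may be technical.

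Glutamate is the main excitatory transmitter of the brain and GABA the main inhibitory one, and they share a metabolism. Glutamate decarboxylase, encoded by Gad1 and Gad2, makes GABA from glutamate inside inhibitory neurons. Astrocytes clear released glutamate through the transporters of Slc1a2 and Slc1a3, turn it into glutamine with the synthetase of Glul, and hand the glutamine back to neurons. Glutamate dehydrogenase, encoded by Glud1, converts glutamate to the citric acid cycle intermediate 2-oxoglutarate in mitochondria. Slc1a1 encodes a neuronal glutamate transporter, and Slc6a11 encodes a GABA transporter found largely on astrocytes. Volatile anaesthetics are known to act on receptors for both transmitters, so the comparisons ask whether repeated exposure is accompanied by a different transcript level of the enzymes and transporters.

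The 2% trimmed means of the arrays lay between 150.1 and 150.2, a closeness that a common scaling would give by itself. Array medians ran from 53.5 to 64.9, and correlations between arrays ran between 0.944 and 0.983. Transcripts of the main brain cell types were present. Controls averaged 2877 ± 567 for Snap25 (neurons), 3763 ± 500 for Aldoc (astrocytes) and 5482 ± 638 for Mbp (oligodendrocytes; SD, n = 12). The arrays fell into 2 sets by the signal of bacterial spike-in RNA, a control added to each sample. The high spike-in set holds 9 arrays, which are replicate 3 of every exposed group and controls 1, 3, 10, 11 and 12, and the low set holds the other 15. Every exposed group therefore had 1 high and 2 low arrays, and the controls had 5 high and 7 low. Among marker lists of other cell types, 0 genes passed the test against control. Blood transcripts had a median log2 fold change of -0.70 over 4 tested genes after 10 halothane exposures and of -0.63 after 10 isoflurane exposures. Their mean per array, in log2 units, lay between 6.10 and 6.25 after 10 halothane exposures, 6.12 and 6.73 after 10 isoflurane exposures, and 6.55 and 7.43 in controls. Choroid plexus transcripts had medians over 5 tested genes of -0.10 after 5 halothane, 0.42 after 10 halothane, 0.42 after 5 isoflurane and 0.34 after 10 isoflurane exposures. Ttr, one of them, had log2 fold changes of -0.58, 0.42, 0.43 and 0.41 in the same order, each with an unadjusted p under 0.05 and adjusted p-values of 0.548 or higher. After 10 isoflurane exposures 4 of the 5 choroid plexus genes were higher and 1, Kl, was lower. Kl also had an unadjusted p under 0.05 there, against 9.05% of all probe sets. Whether these shifts bear on the members was not tested.

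None of the 8 genes passed the test in any comparison with control. In limma fits over 7389 probe sets, 20 of the 21 members could be tested, and 0 of the 20 were called at an adjusted p under 0.05 after 5 or 10 exposures to halothane or to isoflurane. The background share of called probe sets was 0.0135% for 5 halothane exposures, 0.0406% for 10 halothane exposures, and 0% for 5 and for 10 isoflurane exposures. At an unadjusted p under 0.05 there were 3 members, all lower, after 5 halothane exposures, where 3.53% of all probe sets had such a p and 1.88% had it with a lower signal. There was 1 member, higher, after 10 halothane exposures, against 7.52% of all probe sets in either direction and 3.38% higher. There were 0 members after 5 isoflurane exposures, against 2.14% of all, and 3 after 10 isoflurane exposures, 2 higher and 1 lower, against 9.05% of all, 4.47% higher and 4.59% lower. The median log2 fold change of the members was -0.12 after 5 halothane exposures, 0.014 after 10, 0.068 after 5 isoflurane exposures and 0.087 after 10, beside medians over all probe sets of -0.0077, -0.033, 0.0064 and -0.0027 in the same order. All 4 comparisons share the 12 control arrays.

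The size of change that these arrays leave possible can be read from the intervals. The median 95% interval of a member reached 0.37 log2 units to either side of the fold change. For 17 of the 20 members the whole interval lay within 1 log2 unit of 0 in all 4 comparisons with control, and for 5 of them it lay within 0.5. The 3 members with wider intervals were Gad2, Glud1 on rc_AI137421_at and Slc1a3 on X63744_g_at. Their residual SDs were 0.80, 0.54 and 0.58 on the log2 scale, against a median of 0.28 over the members.

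**Figure D1:**
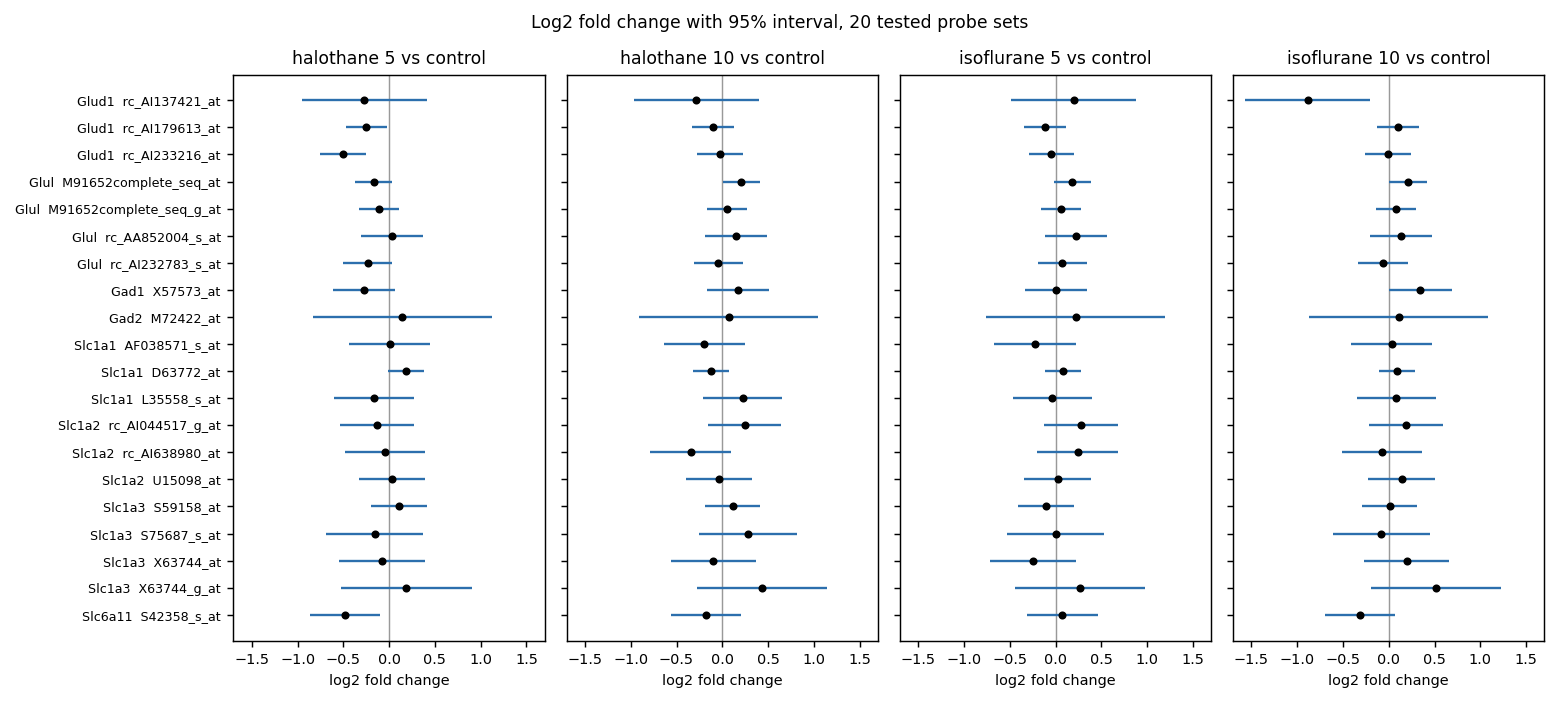
Log2 fold change of each of the 20 tested probe sets (points) with its 95% interval (lines) in the 4 comparisons of an exposed group with control. The intervals are widest for Gad2, followed by Slc1a3 X63744_g_at and Glud1 rc_AI137421_at, and the point of Glud1 rc_AI233216_at after 5 halothane exposures, at -0.50, lies farthest from 0 relative to its interval.

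Gad1, which encodes the decarboxylase that supplies most brain GABA, was measured by 1 probe set, X57573_at, and Gad2, whose product is concentrated at synaptic terminals, by M72422_at. Their promoter windows are shown because the products of these paralogues catalyse the same reaction, and that of Glud1 because this gene gave the lowest p of all members. The windows are RefSeq sequence of the GRCr8 build, 5′ to 3′ along the gene, with 250 bases before the annotated start and 50 after it. Capitals mark matches to TATAAA, the TATA box core, or to GGGCGG, the GC box, on either strand. Gad1 is at chr3:75777202-75777501, Gad2 at chr17:89671468-89671767 and Glud1 at chr16:9646319-9646618, all on the plus strand.
Gad1: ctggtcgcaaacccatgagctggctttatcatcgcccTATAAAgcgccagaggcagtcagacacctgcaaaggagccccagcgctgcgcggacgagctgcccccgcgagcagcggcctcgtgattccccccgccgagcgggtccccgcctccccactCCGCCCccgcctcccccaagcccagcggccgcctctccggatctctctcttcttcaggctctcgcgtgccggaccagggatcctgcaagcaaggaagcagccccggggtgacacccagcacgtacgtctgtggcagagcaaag
Gad2: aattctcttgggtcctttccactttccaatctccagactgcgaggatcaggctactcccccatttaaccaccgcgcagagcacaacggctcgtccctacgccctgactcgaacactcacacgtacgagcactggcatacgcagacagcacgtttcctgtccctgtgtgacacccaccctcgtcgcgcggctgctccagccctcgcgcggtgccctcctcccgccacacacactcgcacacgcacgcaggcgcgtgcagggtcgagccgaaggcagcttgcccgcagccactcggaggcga
Glud1: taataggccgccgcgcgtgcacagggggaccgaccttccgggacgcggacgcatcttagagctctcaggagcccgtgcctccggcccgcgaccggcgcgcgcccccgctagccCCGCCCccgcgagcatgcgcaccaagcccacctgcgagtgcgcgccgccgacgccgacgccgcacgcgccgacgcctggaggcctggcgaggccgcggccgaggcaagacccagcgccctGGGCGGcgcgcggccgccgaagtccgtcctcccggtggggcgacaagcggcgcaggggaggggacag
The Gad1 window holds 1 TATAAA, starting at base 38 of the window, and 1 GC box at base 158. The annotated start follows base 250, so this TATAAA lies far upstream of it. The Gad2 window holds neither. The Glud1 window holds 2 GC boxes, at bases 114 and 234, and has 78.0% G and C, more than 98.4% of the 33469 promoter windows of the table. Of all windows, 14.2% hold TATAAA and 33.1% hold GGGCGG on 1 strand or the other. The cAMP response element TGACGTCA, held by 1.83% of all windows, and the E-box CACGTG, held by 6.42%, are in none of the 3. These matches describe the sequence, and the arrays did not measure promoter activity.

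Gad1 signal was highest after 10 isoflurane exposures, without passing the test. The 3 arrays read 1079.2, 880.6 and 1163.3, against 657.3 at the lowest, 784.2 at the median and 986.1 at the highest of the 12 controls. Replicates 1 and 3 lay above every control and replicate 2 lay inside their range. The log2 fold change was 0.35 ± 0.16 (SE), or 27.1% higher, with an unadjusted p of 0.046 and an adjusted p of 0.533. After 10 halothane exposures Gad1 read 780.6, 1031.6 and 948.8, with a log2 fold change of 0.17. After 5 isoflurane exposures it read 749.4, 825.7 and 876.5, all inside the control range, with a log2 fold change of 0.0036. After 5 halothane exposures it read 932.8, 403.3 and 801.8. Replicate 2 of that group was below every other array of the study, while the other 2 were inside the control range. The log2 fold change of -0.28 became 0.088 without that array.

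Gad2 signal varied more between arrays of a group than between groups. It averaged 115.7 ± 58.3 after 5 halothane exposures, 108.6 ± 52.3 after 10 halothane exposures, 123.1 ± 65.0 after 5 isoflurane exposures, 103.4 ± 30.6 after 10 isoflurane exposures (SD, n = 3 each) and 105.1 ± 51.0 in controls (SD, n = 12). Log2 fold changes against control lay between 0.072 and 0.22, and the 95% intervals reached -0.91 at the lowest and 1.20 at the highest. In every exposed group replicate 3 was the lowest, at 48.4, 48.7, 50.2 and 72.1 in the group order just given. These 4 are the exposed arrays with high spike-in signal. Gad2 averaged 57.8 ± 14.7 on the 9 high spike-in arrays, with a range of 37.5 to 84.8, and 139.6 ± 30.2 on the 15 low ones, with a range of 58.7 to 178.9. The sets overlapped through 1 array, control 2, which has low spike-in signal and the Gad2 value of 58.7. Without it the lowest of the low set would be 104.8. In a fit with spike-in level beside the group, the difference, high minus low, was -1.27 ± 0.17 log2 units (adjusted p = 1.54e-05), and 0.541% of all probe sets had a larger one in size. It was -1.38 in the exposed arrays alone (adjusted p = 9.69e-04) and -1.17 in the controls alone (adjusted p = 0.0368). Gad1 differed between the sets by 0.014 (adjusted p = 0.947), with 843.9 ± 145.4 on high and 847.1 ± 163.2 on low arrays. That small value combines 0.22 in the exposed arrays alone (adjusted p = 0.498) with -0.17 in the controls alone (adjusted p = 0.308).

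**Figure D2:**
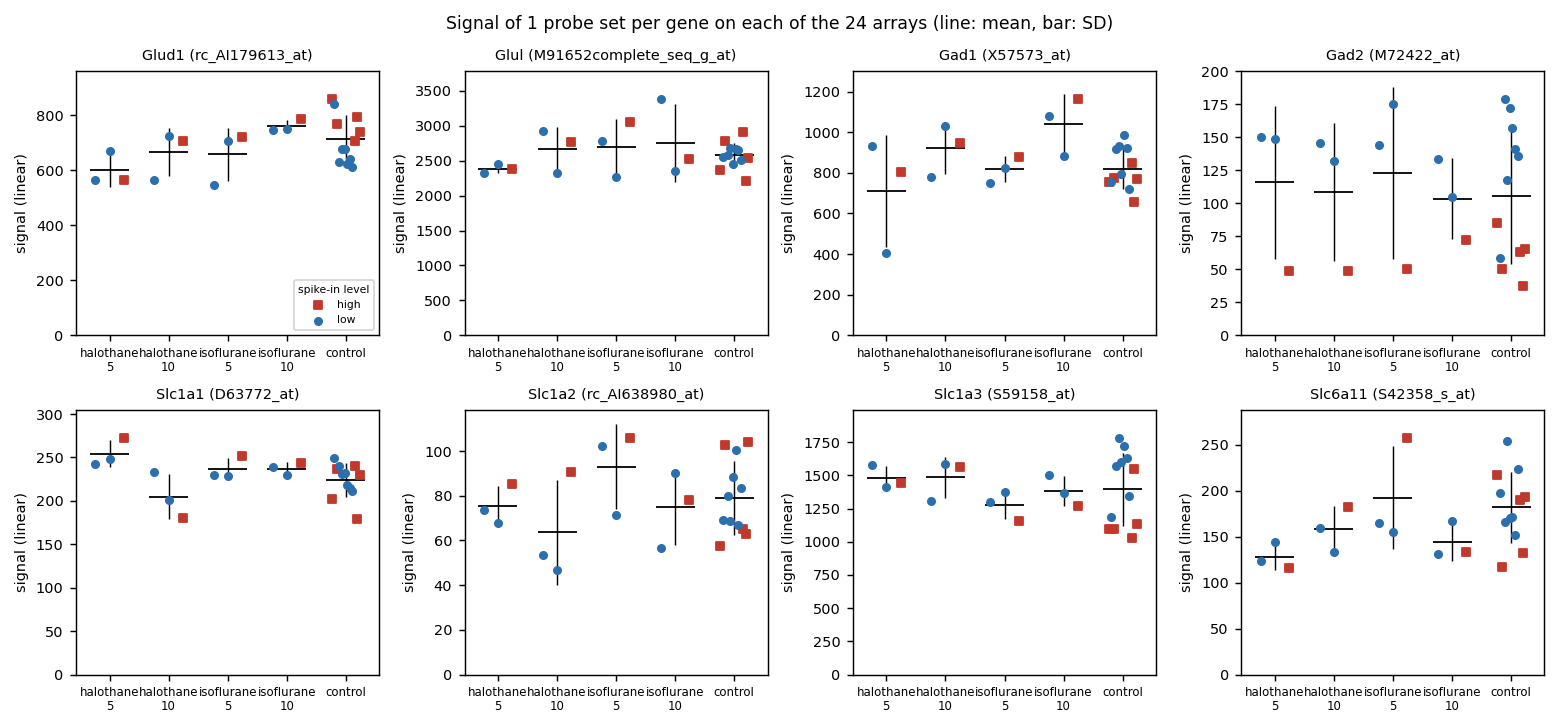
Signal on a linear scale (vertical axes, starting at 0) for the brightest probe set of each gene on each array, by group, with the number of exposures under the agent, and with squares for high and circles for low spike-in arrays. In the Gad2 panel the high arrays lie at 84.8 or lower and all but 1 of the low arrays at 104.8 or higher, in exposed groups and in controls, while Gad1 shows 1 low point at 403.3 after 5 halothane exposures.

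Glud1 held the lowest p of any member. On rc_AI233216_at the 3 arrays after 5 halothane exposures read 497.2, 292.2 and 485.2, against 512.0 at the lowest, 573.5 at the median and 654.3 at the highest control. All 3 lay below every control, which 0.23% of all probe sets did in that comparison. The log2 fold change was -0.50 ± 0.12 (SE), 29.4% lower, with an unadjusted p of 3.58e-04, the rank 4 of 7389, and an adjusted p of 0.661. Replicate 2 was the lowest, the same array on which Gad1 read 403.3, and without it the log2 fold change was -0.25. With all 3 arrays kept, it was -0.31 within the high spike-in arrays, with 1 exposed array, and -0.59 within the low ones, with 2 exposed arrays. The groups with 10 halothane, 5 isoflurane and 10 isoflurane exposures had log2 fold changes of -0.023, -0.045 and -0.0051 on the same probe set, with single arrays of the isoflurane groups at 500.1 and 497.6, also below the lowest control.

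Of the same 3 arrays, 2 were also low on another Glud1 probe set. On rc_AI179613_at, 5 halothane exposures gave 565.6, 668.4 and 562.6, against 610.5, 691.4 and 858.8 at the lowest, median and highest control. Here replicates 1 and 3 lay below the control range and replicate 2 inside it, and the log2 fold change was -0.25 (p = 0.035, adjusted p = 1). On rc_AI137421_at, the dimmest of the 3, the largest difference from control came after 10 isoflurane exposures. The arrays there read 29.6, 44.7 and 78.0, against 35.9, 94.8 and 129.2 at the lowest, median and highest control. Only replicate 1 was outside the control range, and the log2 fold change was -0.89 ± 0.33 (p = 0.0131, adjusted p = 0.394). After removing group means, Pearson's r between the 3 probe sets lay between 0.0037 and 0.074 over 24 arrays and Spearman's rho between -0.053 and 0.14, with adjusted permutation p-values of 0.761 or higher.

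Glul, the enzyme that detoxifies ammonia and glutamate together, was measured by 4 probe sets, of which M91652complete_seq_at and M91652complete_seq_g_at were designed on the same sequence. On M91652complete_seq_at, 10 halothane exposures gave 2001.1, 1752.8 and 2191.2 and 10 isoflurane exposures gave 2297.8, 1749.1 and 1900.4. The controls had 1442.5 at the lowest, 1720.9 at the median and 2036.2 at the highest, so 1 array of each exposed group lay above all controls and the other 2 inside their range. The log2 fold changes were 0.21 (p = 0.0467, adjusted p = 0.660) and 0.21 (p = 0.0497, adjusted p = 0.549). After 5 halothane exposures the signals were 1529.9, 1602.4 and 1423.4, with a log2 fold change of -0.17, and after 5 isoflurane exposures they were 1803.6, 1845.3 and 2193.6, with 0.18. The partner probe set on the same sequence gave log2 fold changes between -0.11 and 0.080 in the 4 comparisons, rc_AA852004_s_at gave 0.034 to 0.23 and rc_AI232783_s_at gave -0.24 to 0.075. After 5 halothane exposures 3 of the 4 Glul probe sets were lower than in controls.

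**Figure D3:**
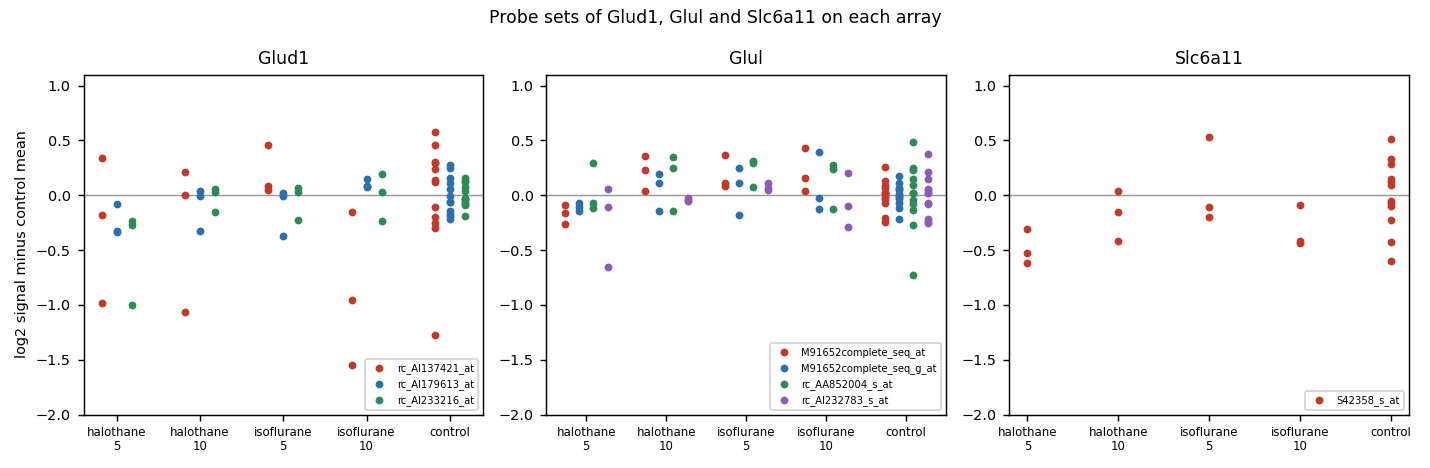
Log2 signal minus the control mean (vertical axis) of every array, by group and by probe set (colours), for Glud1, Glul and Slc6a11. Within Glud1, the green points of rc_AI233216_at fall below 0 on all 3 arrays with 5 halothane exposures, while the red points of rc_AI137421_at spread over more than 1 log2 unit within a group.

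The neuronal glutamate transporter gene Slc1a1 was measured by 3 probe sets. On D63772_at, the brightest, 10 halothane exposures gave 232.8, 201.3 and 180.7, against 178.7 at the lowest, 230.0 at the median and 249.1 at the highest control. After 5 halothane exposures the arrays read 242.6, 248.7 and 272.1, of which 1 exceeded every control. After 5 isoflurane exposures they read 229.6, 228.8 and 251.6, and after 10 they read 238.5, 229.3 and 244.1. Log2 fold changes against control lay between -0.13 and 0.19 on this probe set, between -0.22 and 0.030 on AF038571_s_at and between -0.17 and 0.22 on L35558_s_at. All of their adjusted p-values were over the threshold.

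Slc1a2 encodes the astrocytic transporter that removes most glutamate from the extracellular space, and 2 of its 4 probe sets were near or under the lower limit of 16.5 that was set before logarithms were taken. One of them, rc_AI044517_at, read 3.1 to 9.2 on all 24 arrays, and was the member left untested. Its partner rc_AI044517_g_at exceeded that limit on 9 of 24 arrays, so its fold changes are understated. The other 2, rc_AI638980_at and U15098_at, exceeded it on all 24 arrays. They averaged 77.9 and 52.1, beside a median of 58.9 over all values of the arrays. On rc_AI638980_at, 5 isoflurane exposures gave 102.1, 71.2 and 105.7 and 10 halothane exposures gave 53.6, 46.7 and 90.5, against 57.6, 74.7 and 104.1 at the lowest, median and highest control. Their log2 fold changes were 0.24 and -0.35. U15098_at stayed between -0.041 and 0.14. Fewer astrocytes and less transcript per astrocyte cannot be told apart in whole brain, and the same holds for the other genes and cell types.

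Slc1a3 encodes the glutamate transporter of cerebellar and other astrocytes and was measured by 4 probe sets. On S59158_at, the brightest, the group means were 1478 ± 90 after 5 halothane, 1485 ± 156 after 10 halothane, 1278 ± 110 after 5 isoflurane and 1382 ± 116 after 10 isoflurane exposures (SD, n = 3 each), against 1395 ± 276 in controls (SD, n = 12). All 12 exposed arrays lay inside the control range of 1025.5 to 1779.5. Of the 4, X63744_g_at had the largest log2 fold changes, between 0.19 after 5 halothane and 0.52 after 10 isoflurane exposures, where the arrays read 414.4, 274.8 and 240.4 against 91.8, 226.3 and 369.6 at the lowest, median and highest control. Its residual SD of 0.58 made the 95% interval of that value run from -0.19 to 1.23. The partner X63744_at exceeded the lower limit on 16 of 24 arrays, and its log2 fold changes lay between -0.25 and 0.20.

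Slc6a11, the GABA transporter, was measured by S42358_s_at. After 5 halothane exposures it read 123.3, 144.0 and 116.3, against 117.1 at the lowest, 180.9 at the median and 254.1 at the highest control. All 3 arrays lay below the control median and 1 lay below every control. The log2 fold change was -0.48 ± 0.19 (SE), 28.5% lower, with an unadjusted p of 0.0158 and an adjusted p of 1. It was -0.51 within the high and -0.50 within the low spike-in arrays. After 10 halothane exposures the signals were 159.9, 133.3 and 183.0, with a log2 fold change of -0.18. After 5 isoflurane exposures they were 165.5, 154.8 and 257.3, with 0.075, and after 10 isoflurane exposures 131.7, 167.5 and 133.4, with -0.31.

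Halothane was set against isoflurane at matched exposure numbers, although the inhaled concentrations differ. After 5 exposures 0 members were called, against 0.0135% of the 7389 probe sets. At an unadjusted p under 0.05 there were 3, against 2.98% of all. These were Slc6a11 at -0.56, Glud1 rc_AI233216_at at -0.46 and Glul M91652complete_seq_at at -0.35, each as halothane minus isoflurane and each with an adjusted p of 1. The median over the members was -0.16, beside -0.0081 over all probe sets. After 10 exposures 0 members were called, against 0% of all, 0 had an unadjusted p under 0.05, against 3.11% of all, and the median was -0.024. Members differed by at most 0.60 log2 units there.

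The number of exposures was compared within each agent, which for halothane shares the 5-exposure arrays with the comparison between agents. For 10 against 5 halothane exposures 0 members were called, against 0.0135% of the 7389. At an unadjusted p under 0.05 there were 4, against 3.76% of all. Glud1 rc_AI233216_at read 597.9, 526.0 and 607.9 after 10 exposures and 497.2, 292.2 and 485.2 after 5, a log2 difference of 0.48 (p = 0.00446, adjusted p = 1). Glul M91652complete_seq_at differed by 0.38 (p = 0.00615, adjusted p = 1). The arrays of the 2 groups did not overlap on these 2 members, higher after 10 exposures, against 3.1% of all probe sets. Gad1 differed by 0.45, and by 0.080 without the array at 403.3. Slc1a1 D63772_at differed by -0.32 (p = 0.0143, adjusted p = 1), the 1 member lower without overlap, as 5.32% of all probe sets were. For 10 against 5 isoflurane exposures 0 members were called, against 0% of all, and 1 had an unadjusted p under 0.05, against 3% of all. It was Glud1 rc_AI137421_at, with 29.6, 44.7 and 78.0 after 10 exposures and 119.3, 91.9 and 89.6 after 5, a log2 difference of -1.08 (p = 0.0160, adjusted p = 1). In the interaction of agent and exposure number 0 members were called, against 0% of all, and Slc6a11 was the 1 member with an unadjusted p under 0.05, at 0.69 (p = 0.0479, adjusted p = 1), against 2% of all probe sets. With the 4 exposed groups averaged and set against control, 0 members were called, against 0% of all, and 0 had an unadjusted p under 0.05, against 8.44% of all.

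Other genes of the same metabolism gave the same count. Of 23 listed genes 11 were on the array and 9 could be tested, and 0 of the 9 passed in any of the 4 comparisons with control. Oat, which links ornithine to glutamate, averaged 195.1 ± 23.1 after 10 isoflurane exposures and 230.6 ± 22.4 in controls, a log2 fold change of -0.24 (p = 0.0357, adjusted p = 0.501). It averaged 268.2 ± 0.84 after 5 halothane exposures, with 0.22 (p = 0.0513, adjusted p = 1). Slc1a6, a glutamate transporter of cerebellar Purkinje cells, had the largest fold change of the list, 1.27 after 10 halothane exposures, but averaged 76.7 ± 65.3 there and 26.2 ± 25.3 in controls (adjusted p = 0.670). Slc32a1, which loads GABA into vesicles, averaged 655.9 ± 102.2 after 10 halothane exposures and 769.3 ± 131.6 in controls, a log2 fold change of -0.22 (adjusted p = 0.739). Got2, the mitochondrial aspartate aminotransferase, had a log2 fold change of 0.11 in the same comparison. The median of the list lay between 0.015 and 0.10 in the 4 comparisons.

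Markers of the cells that use these genes were set beside them. Of 10 tested genes of GABAergic neurons, 0 were called after 10 halothane exposures and 5 had an unadjusted p under 0.05, against 7.52% of all probe sets. Calb1, Reln and Pvalb were higher, with log2 fold changes of 0.64, 0.50 and 0.74, and the peptides Npy and Sst were lower, with -0.38 and -0.32. The list mean per array, in log2 units, lay between 8.70 and 8.83 there and between 8.67 and 8.84 in controls. After 10 isoflurane exposures, where Gad1 was highest, Calb1 and Pvalb had 0.47 and 0.66 (adjusted p = 0.495 and 0.385). They were the 2 of the 10 with an unadjusted p under 0.05, against 9.05% of all probe sets. Over the 10 genes, 5 were higher and 5 lower there, with a median of 0.056. Of 7 genes of glutamatergic neurons 0 were called after 10 halothane exposures and 3 had an unadjusted p under 0.05, against 7.52% of all probe sets. These were Neurod1 at 0.88, Gria1 at 0.47 and Grin2a at -0.76. Neurod1 and Gria1 were the only 2 higher genes of the list, and 5 were lower, with a median of -0.17 over the 7. Of 10 astrocyte genes 0 were called in any of the 4 comparisons. Their list mean lay between 8.97 and 9.16 after 5 halothane exposures and between 9.01 and 9.34 in controls. After 5 halothane exposures, where some Glud1 and Glul probe sets and Slc6a11 had their negative log2 fold changes, 7 of the 10 astrocyte genes had a negative and 3 a positive log2 fold change, with a median of -0.10 and 0 of them with an unadjusted p under 0.05. The astrocyte transcripts S100b and Apoe averaged 3020 ± 574 and 5383 ± 947 after 5 halothane exposures and 2845 ± 500 and 5549 ± 713 in controls.

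Some members differed by the spike-in level of the array, a comparison of 9 with 15 arrays. By exposure 0 of them passed, with 3 arrays in each exposed group. With the level as a term, 7 of 20 members differed between the 9 high and the 15 low arrays, and 20% of all probe sets did. Of the 7, 5 were lower on high arrays, against 12.3% of all probe sets, and 2 were higher, against 7.67%. Besides Gad2, the lower ones were 3 probe sets of Slc1a3 and 1 of Slc1a1. Slc1a3 X63744_g_at averaged 179.8 ± 53.7 on high and 298.9 ± 73.2 on low arrays, a difference of -0.72 (adjusted p = 0.0041), and S75687_s_at averaged 249.6 ± 59.6 and 380.2 ± 59.1 in the same order, a difference of -0.63 (adjusted p = 2.88e-04). For S59158_at it was -0.24 (adjusted p = 0.0398), and this call held in 5 of 9 other settings and in 9 of 24 fits with 1 array left out. Slc1a1 AF038571_s_at averaged 129.8 ± 29.1 on high and 170.8 ± 22.3 on low arrays, a difference of -0.43 (adjusted p = 0.0071). The higher ones were the 2 dim probe sets Slc1a3 X63744_at, with 0.42, and Slc1a2 rc_AI044517_g_at, with 0.34. Within the exposed arrays alone 3 members were called, against 12.1% of all probe sets, and within the controls alone 1 was, Gad2, against 3.51%. Over all arrays Glul, Glud1, Gad1 and Slc6a11 had 0 of 9 probe sets called, while in the exposed arrays alone Glul rc_AA852004_s_at was among the 3 (-0.32, adjusted p = 0.0213). The 3′ to 5′ ratio of the actin control probe sets, a measure of RNA integrity, had a median log2 value of 0.68 on high and 0.85 on low arrays, and that of GAPDH -0.057 and -0.019. Markers of cell types also moved with the level. Of 6 neuron genes 3 were lower on high arrays, with a median difference of -0.24 over the 6, and of 6 oligodendrocyte genes 3 were lower, with a median of -0.24. Of 10 astrocyte genes 4 were higher and 2 lower, with a median of 0.13, and of 10 GABAergic genes 1 was lower, with a median of 0.057. The part of RNA integrity and of these markers in the members' differences was not tested.

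**Figure D4:**
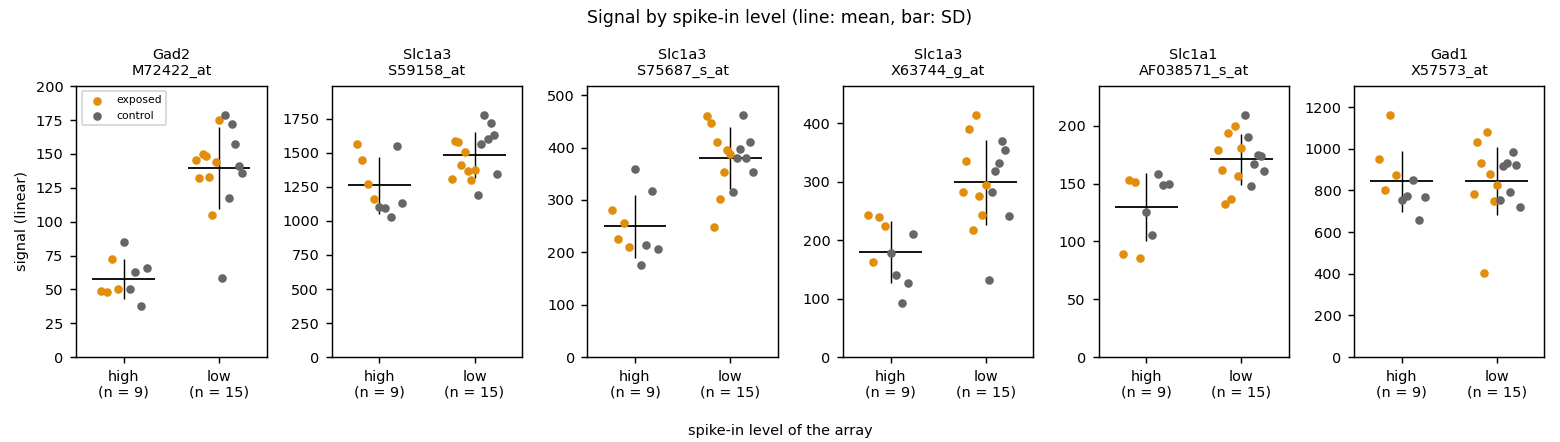
Signal on a linear scale of 6 member probe sets on high and low spike-in arrays, with exposed arrays in orange and control arrays in grey. The means of Gad2, the 3 Slc1a3 probe sets and Slc1a1 AF038571_s_at are lower on high arrays over all 24. In the exposed arrays alone the difference of Slc1a3 S59158_at was -0.076 (adjusted p = 0.579), and the means of Gad1 are 843.9 on high and 847.1 on low arrays.

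Probe sets of the same gene covaried only for some genes. Over 21 such pairs, with group means removed, 7 had an adjusted permutation p under 0.05, 5 with a positive r and 2 with a negative one. The Glul pair on the same sequence had r = 0.72 and rho = 0.72 (adjusted permutation p = 0.010 and 0.013), and r = 0.63 on the 15 low spike-in arrays alone. Slc1a3 S59158_at and X63744_g_at had r = 0.74 and rho = 0.73 (adjusted permutation p = 0.010 and 0.013), and r = 0.89 on low arrays. Slc1a1 AF038571_s_at and L35558_s_at had r = 0.62 and rho = 0.67 (adjusted permutation p = 0.013 for both), and r = 0.72 on low arrays. The other positive pairs were Slc1a3 S75687_s_at with S59158_at, r = 0.59, and with X63744_g_at, r = 0.55, and on low arrays they had 0.20 and 0.057. The negative pairs were X63744_at with S75687_s_at, r = -0.66, and with X63744_g_at, r = -0.58. On low arrays these had 0.11 and -0.13. These 4 relations of S75687_s_at and X63744_at therefore did not hold within the low level.

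Between genes, with the brightest probe set of each and group means removed, 0 of 28 pairs passed after Benjamini-Hochberg adjustment. Glul and Slc1a1 had r = 0.46 and rho = 0.46 (permutation p = 0.014 and 0.027, adjusted permutation p = 0.232 and 0.251). Glud1 and Gad2 had r = -0.54 and rho = -0.54 (adjusted permutation p = 0.232 and 0.251). Gad2 and Slc1a3 had r = 0.49 and rho = 0.53 (adjusted permutation p = 0.232 and 0.251). Leaving out the 2 arrays farthest from the median of the first gene gave 0.54, -0.55 and 0.62 for these 3 pairs. On the 15 low spike-in arrays they had 0.35, -0.57 and 0.62, with rho of 0.42, -0.20 and 0.25. Leaving out the 2 farthest of these low arrays gave r of 0.36, -0.14 and 0.14. On those arrays Gad1 and Slc1a3 had r = 0.62 and rho = 0.87 (adjusted permutation p = 0.0386 and 0.0221), against r = 0.32 over all 24.

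**Figure D5:**
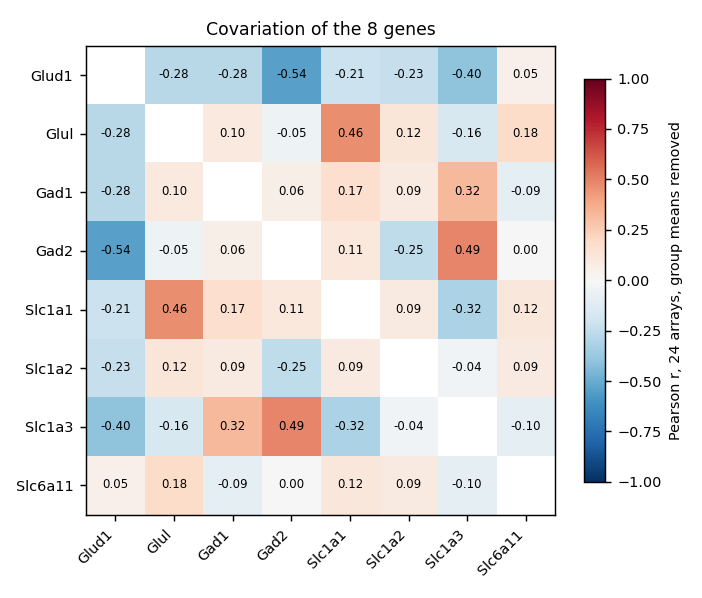
Pearson's r between the 8 genes over 24 arrays, 1 probe set per gene, after removal of group means, with red for positive and blue for negative values. The values farthest from 0 are -0.54 for Glud1 and Gad2, 0.49 for Gad2 and Slc1a3, and 0.46 for Glul and Slc1a1, and none passed after adjustment over 28 pairs.

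As a description, the profiles most like the brightest probe set of each gene were found among 5998 probe sets of other genes with 1 symbol. These profiles were ranked by Pearson's r over the 24 arrays after removal of group means. For Gad2 they were Ptprd, G3bp2 and St13, each with r = 0.94, and these 3 differed by -1.18, -0.69 and -0.57 log2 units between high and low spike-in arrays, in the same direction as Gad2. For Gad1 they were Grin2c (0.79), Rab28 (0.75) and Elavl4 (0.71). For Glud1, on rc_AI179613_at and not rc_AI233216_at, they were Dusp1 (0.79), Resp18 (0.79) and Gstm1 (0.74). For Slc1a3, on S59158_at, they were Col26a1, Ppm1b and Rida, each with 0.80. High minus low spike-in arrays, Dusp1, Resp18 and Gstm1 differed by 1.06, 0.13 and 0.085 log2 units. Col26a1, Ppm1b and Rida differed by -0.29, -0.36 and -0.55, in the same direction as Slc1a3 S59158_at. Glul, Slc1a1, Slc1a2 and Slc6a11 had maxima of 0.73 (Nos2), 0.66 (Nos3), 0.70 (Plod2) and 0.73 (Kl).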

How the data were processed

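Total RNA of whole rat brain was measured on 24 one-colour arrays in 5 groups. Values are the authors' deposited intensities, linear and not logged, 1 for each probe set of each array. Their scaling was left unchanged. The software that summarised them, detection calls and the genome build are not given in the sources used here. Intensities under 16.5, the 25th percentile of the table, were raised to it before log2 values were computed, which understates changes of dim genes. After removal of 59 control probe sets, those above 16.5 on at least 3 arrays were kept (7389).

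Groups were compared with limma 3.58.1 (R 4.3.3; 1 linear model with 5 groups, contrasts, moderated with an intensity trend, two-sided), with Benjamini-Hochberg adjustment over the 7389 and a threshold of 0.05, in 10 comparisons. SEs are of the moderated fit, and the number of arrays limits precision. The spike-in level splits arrays at the largest gap (0.57 log2 units) in the mean of 9 bacterial probe sets. Correlations used deviations from group means and 100000 permutations within groups, two-sided. Deviations of same-numbered arrays from their group means had correlations between 0.087 and 0.52 in all 18 pairs of exposed arrays (median 0.26, against -0.18 for other numbers) and between -0.18 and 0.31 in 12 pairs with controls. Deviations cancel out within a group, and same-numbered exposed arrays share their spike-in level, so this contrast cannot show pairing by number. Exposed arrays with different numbers but the same level had correlations between 0.013 and 0.21. All 3 pairs passed 0.1 for 10 halothane against 10 isoflurane and for 10 against 5 isoflurane exposures, but the labels state no pairing. The p-values reported for these comparisons are from fits without pairing, and replicate number was a block only as an alternative. Replicate 3 is also the high spike-in array of each exposed group. The fit was checked on simulated data. Named genes are all members, up to 4 lowest-p genes of a 23-gene pathway list per comparison with control, up to 3 marker genes per list (the 5 GABAergic and 3 glutamatergic genes with an unadjusted p under 0.05 after 10 halothane exposures were named after their values were seen), and the 3 profiles most like each gene. The choroid plexus gene Kl was also named as a marker after its value was seen. Members and lists were chosen with earlier results of these data known. Promoters were matched by symbol for 7 of the 8 genes.

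Alternatives were other scalings, floors, filters and variance models, fewer samples, spike-in level or replicate number as a block, and each array left out.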

Additional observations from a re-analysis of the deposited data

How the results depend on the processing

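No member passed in any alternative of the 10 comparisons. Over 200 fold changes there were 2747 values in other settings, of which 0 were called, 2579 kept their sign and 168 did not, and 4800 values with 1 array left out, of which 0 were called and 197 changed sign, so the count of called members was 0 throughout, at the lowest and at the highest. Counts over all probe sets moved more. For 10 halothane exposures, 3 as reported, the count was 33 with array weights, 15 with the replicate block, 10 with the floor at the 40th percentile, 0 on high spike-in arrays only, and 2 to 6 with each array left out. For the 4 exposed groups averaged it was 27 with the replicate block, against 0 as reported, for 10 isoflurane exposures up to 4, or 5 with an array left out, against 0, and for 5 halothane exposures 0 to 2, against 1. The cause was not tested. Without replicate 2 of 5 halothane exposures, Glud1 rc_AI233216_at had -0.25 and Gad1 0.088 in that comparison. With the replicate block 0 members were called in each of the 10 comparisons. The lowest adjusted p was 0.0616, for Slc1a3 X63744_g_at where the 4 exposed groups were averaged against control. In that setting controls 4 to 12 share their number with no other array, so comparisons with control rest on controls 1 to 3. Control 1 is a high spike-in array, while replicate 1 of each exposed group is low.

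The count of members that differ by spike-in level, 7 over all arrays, was 3 in the exposed arrays alone, where 12.1% of all probe sets were called, and 1 in the controls alone, where 3.51% were. Either fit holds fewer arrays, and the cause was not tested. Across 9 settings Gad2, Slc1a3 S75687_s_at and X63744_g_at and Slc1a1 AF038571_s_at were called in 9 of 9, and with each array left out in 24 of 24. Slc1a3 S59158_at was called in 5 of 9 and 9 of 24. Slc1a2 rc_AI044517_g_at was called in 6 of 7 and 17 of 24, and Slc1a3 X63744_at in 6 of 7 and 22 of 24. Glud1 rc_AI137421_at, not called over all arrays (0.51), was called in 3 of 9 settings, at 0.58 with quantile normalization. The count of correlated gene pairs, 0 of 28, was 1 with low spike-in arrays only. The alternatives on high and low spike-in arrays leave 1 and 2 arrays per exposed group, and signal near 16.5 limits Slc1a2 and Slc1a3 X63744_at.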
